A study of Mus musculus with 10 samples.

Results

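The 32 genes described here are expressed by macrophages of adipose tissue, and they were followed in gonadal white adipose tissue, a visceral fat pad. Some of them, such as Cd9, Ctsk and Lyve1, are made by other cells too, so their levels are not a measure of macrophages alone. They were picked by name from the 40503 genes of the deposited table, and 17038 of those genes, all 32 among them, passed the filter on low values. Of the 32, 14 are pan-macrophage genes, 5 are genes of resident macrophages, 4 are genes of lipid-associated macrophages, and 9 encode lysosomal or lipid-handling proteins that are abundant in lipid-laden macrophages. The libraries came from 5 mice labelled Med19 KO and 5 labelled WT, all female C57BL/6 animals of 12 weeks, and each library is named by its group and animal number. The KO mice carry an inducible, adipose-specific knockout of Med19, a Mediator subunit, and were given tamoxifen (100 mg/kg) on 5 days and sampled 14 days after it. The sources used here do not say whether the WT mice received tamoxifen, which alleles they carry, or which promoter drives the recombinase.

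Macrophages are the main phagocytes of fat. Resident macrophages take up debris, iron and hormones through scavenger and lectin receptors, and they lie along vessels and nerves. Lipid-associated macrophages gather around dying or enlarged adipocytes, sense lipid through the receptor TREM2 and its adaptor TYROBP, and degrade the lipid they take up in lysosomes. The tissue was sequenced whole, so more cells of a type and more RNA per cell cannot be told apart.

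Depth was 15178603 to 20178730 reads assigned to genes in the KO-labelled libraries and 14441091 to 16186143 in the WT libraries, as recovered from the RPKM values (reads scaled to gene length and library size). Med19 RNA gave no check of the labels, and the sources used here do not say which exons are deleted. Its level was 6.79 ± 0.85 RPKM in KO-labelled and 6.70 ± 0.89 RPKM in WT libraries (SD, n = 5 each; 2-sided exact permutation p = 0.881, smallest possible 0.00794). The groups are therefore called KO-labelled and WT, and every direction rests on those labels. Adipocyte markers were abundant in both groups, with a summed level of 6436 to 7315 RPKM in KO-labelled and 17053 to 24968 RPKM in WT libraries. Over all genes tested the median log2 change was 0.09. By limma, 681 genes (4.00%) were called higher and 332 (1.95%) lower at an adjusted p under 0.05. Median-ratio scaling moved the median to 0.01 and these calls to 103 higher (0.605%) and 417 lower (2.45%). A change is the difference of log2(RPKM + 0.5), KO-labelled minus WT, its error is limma's moderated SE, and it understates the change of low genes.

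Macrophage genes were modestly higher in the KO-labelled libraries, and few of them passed the test. The change was positive for 30 of the 32 genes, beside 68.7% of all tested genes, and its median was 0.32. Spp1, Ctsl and Ctsk passed (9.38% of the 32 genes, beside 4.00% of all genes tested called higher), and 0 genes passed as lower. At an unadjusted p under 0.05, 21 of the 32 were higher and 1 was lower, beside 19.9% and 4.82% of all tested genes. In 6 genes every KO-labelled library lay above every WT library, which held for 6.96% of all tested genes, and in 0 every one lay below (2.15% of all genes). The median change was 0.35 for pan-macrophage, 0.37 for resident, 0.40 for lipid-associated and 0.29 for lysosomal and lipid-handling genes. With median-ratio scaling 28 of the 32 changes were positive, their median was 0.23, and only Spp1 passed. With median-ratio scaling and without WT 86, a library described next, 25 changes were positive and their median was 0.16. With quantile normalization Spp1 and Ctsl passed, beside 0.875% of all genes called higher and 2.30% lower.

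One WT library stood apart in these genes. WT 86 was the lowest of the 10 libraries for 25 of the 32 genes. The mean log2 level of the pan-macrophage genes was 6.98, 6.97, 6.90, 6.96 and 6.78 in KO 1, KO 4, KO 7, KO 8 and KO 17. It was 6.77, 6.60, 6.72, 6.31 and 6.65 in WT 2, WT 9, WT 19, WT 86 and WT 89. The 2 groups nearly touched, at KO 17 and WT 2. Without WT 86, 28 of the 32 changes were positive, their median was 0.26, and the genes past the threshold were Spp1 and Folr2, not Ctsl or Ctsk, beside 1.30% of all genes called higher and 1.33% lower.

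**Figure D1:**
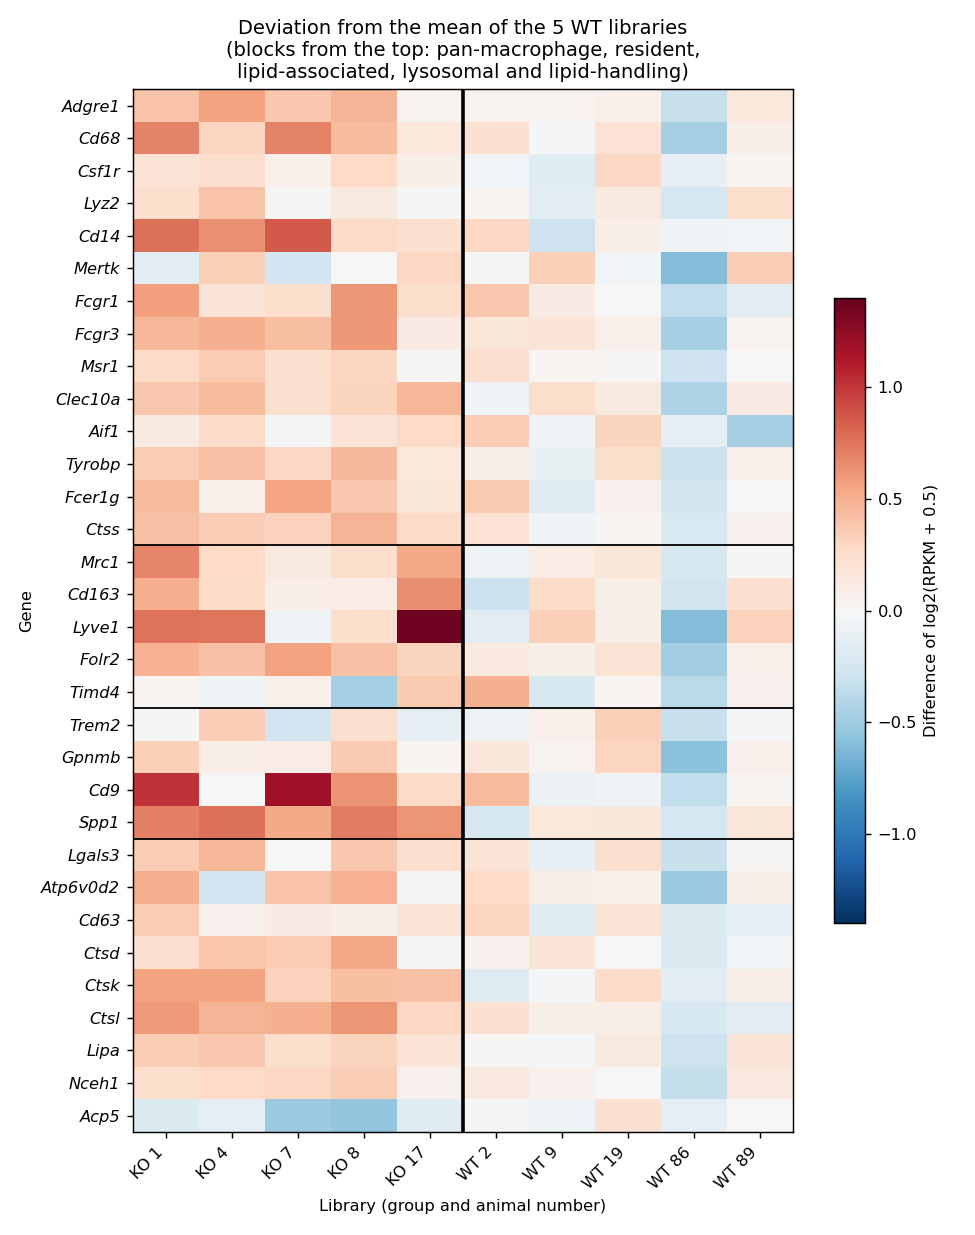
Each cell gives a gene's log2(RPKM + 0.5) in one library minus its mean over the 5 WT libraries, with red above and blue below that mean, and with the KO-labelled libraries left of the black line. WT 86 is blue in nearly every row and was the lowest library for 25 of 32 genes, while Acp5, in the bottom row, is blue in the KO-labelled libraries.

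Of the pan-macrophage genes, all 14 had a positive change, from 0.05 to 0.55, and 0 passed the test in limma (10 at an unadjusted p under 0.05; 3 with voom on recovered reads, where 5.02% of all genes were called higher and 2.21% lower). Ctss, which encodes cathepsin S, the lysosomal protease that trims the MHC class II invariant chain, came closest to the threshold. Its level was 1247, 1191, 1177, 1302 and 1130.4 RPKM in KO 1, KO 4, KO 7, KO 8 and KO 17, against 1078, 901, 955, 809 and 976 RPKM in WT 2, WT 9, WT 19, WT 86 and WT 89. The groups did not overlap, with WT 2 the nearest WT library, and the change was 0.36 (SE 0.10, adjusted p = 0.0510). The endotoxin co-receptor gene Cd14 was at 144, 132, 153, 102 and 98.4 RPKM in the KO-labelled libraries in the same order, against 103, 69.0, 90.2, 81.3 and 82.4 RPKM in the WT libraries. KO 1, KO 4 and KO 7 lay above every WT library and KO 8 and KO 17 within the WT range, for a change of 0.55 (SE 0.15, adjusted p = 0.0549).

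The genes most used to count macrophages were higher on average without passing the test. Adgre1, which encodes F4/80, was at 116 ± 15.1 RPKM in KO-labelled and 89.4 ± 10.5 RPKM in WT libraries (SD, n = 5 each), and its ratio was 1.29 (95% interval 1.08 to 1.54, adjusted p = 0.0818). Cd68, which encodes macrosialin, a lysosomal glycoprotein, was at 308 ± 51.0 and 225 ± 39.4 RPKM in KO-labelled and WT libraries, a ratio of 1.37 (1.08 to 1.73, adjusted p = 0.1005). For both genes, 4 of the 5 KO-labelled libraries exceeded all WT libraries, and KO 17 fell within the WT range. Csf1r, the receptor for the macrophage growth factor CSF1, differed less, at 182 ± 11.4 and 162 ± 21.0 RPKM in KO-labelled and WT libraries, a ratio of 1.13 (0.978 to 1.30, adjusted p = 0.276). No KO-labelled library exceeded WT 19, the highest WT library for Csf1r at 197 RPKM.

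Receptors of IgG and their shared signalling chain had changes between 0.32 and 0.42, and 0 of them passed. The Fc receptor genes Fcgr1 and Fcgr3 had changes of 0.37 and 0.42 (adjusted p = 0.127 and 0.0884). Fcer1g, the immunoreceptor chain that pairs with both, had a change of 0.32 (adjusted p = 0.163), and Tyrobp, the adaptor of TREM2, one of 0.33 (adjusted p = 0.0995). Tyrobp was at 347 to 432 RPKM in KO-labelled and 254 to 374 RPKM in WT libraries, and 4 KO-labelled libraries exceeded all WT libraries. The galactose lectin gene Clec10a (change 0.37, adjusted p = 0.0870) and the scavenger receptor gene Msr1 (0.23, adjusted p = 0.170) also missed the threshold. Clec10a was at 31.0 to 36.6 RPKM in KO-labelled and 19.5 to 31.5 RPKM in WT libraries, and Msr1 at 29.2 to 37.0 RPKM in KO-labelled and 23.6 to 34.0 RPKM in WT libraries.

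Lyz2, Aif1 and Mertk differed least among the pan-macrophage genes. The lysozyme gene Lyz2 was the most abundant of the 32 genes, at 3066 ± 379 RPKM in KO-labelled and 2762 ± 379 RPKM in WT libraries (change 0.15, adjusted p = 0.515). Aif1, which encodes the actin-binding protein IBA1, had a change of 0.16 (adjusted p = 0.533). Mertk, the receptor through which macrophages clear apoptotic cells, was at 29.7 to 45.3 RPKM in KO-labelled and 23.3 to 45.5 RPKM in WT libraries. Its change was 0.05 (95% interval -0.37 to 0.46, adjusted p = 0.910) and turned negative, at -0.04, with median-ratio scaling and with quantile normalization. Lyz2, Clec10a and Fcgr3 each have a close paralogue, and the sources used here do not say how reads that match both copies were counted.

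**Figure D2:**
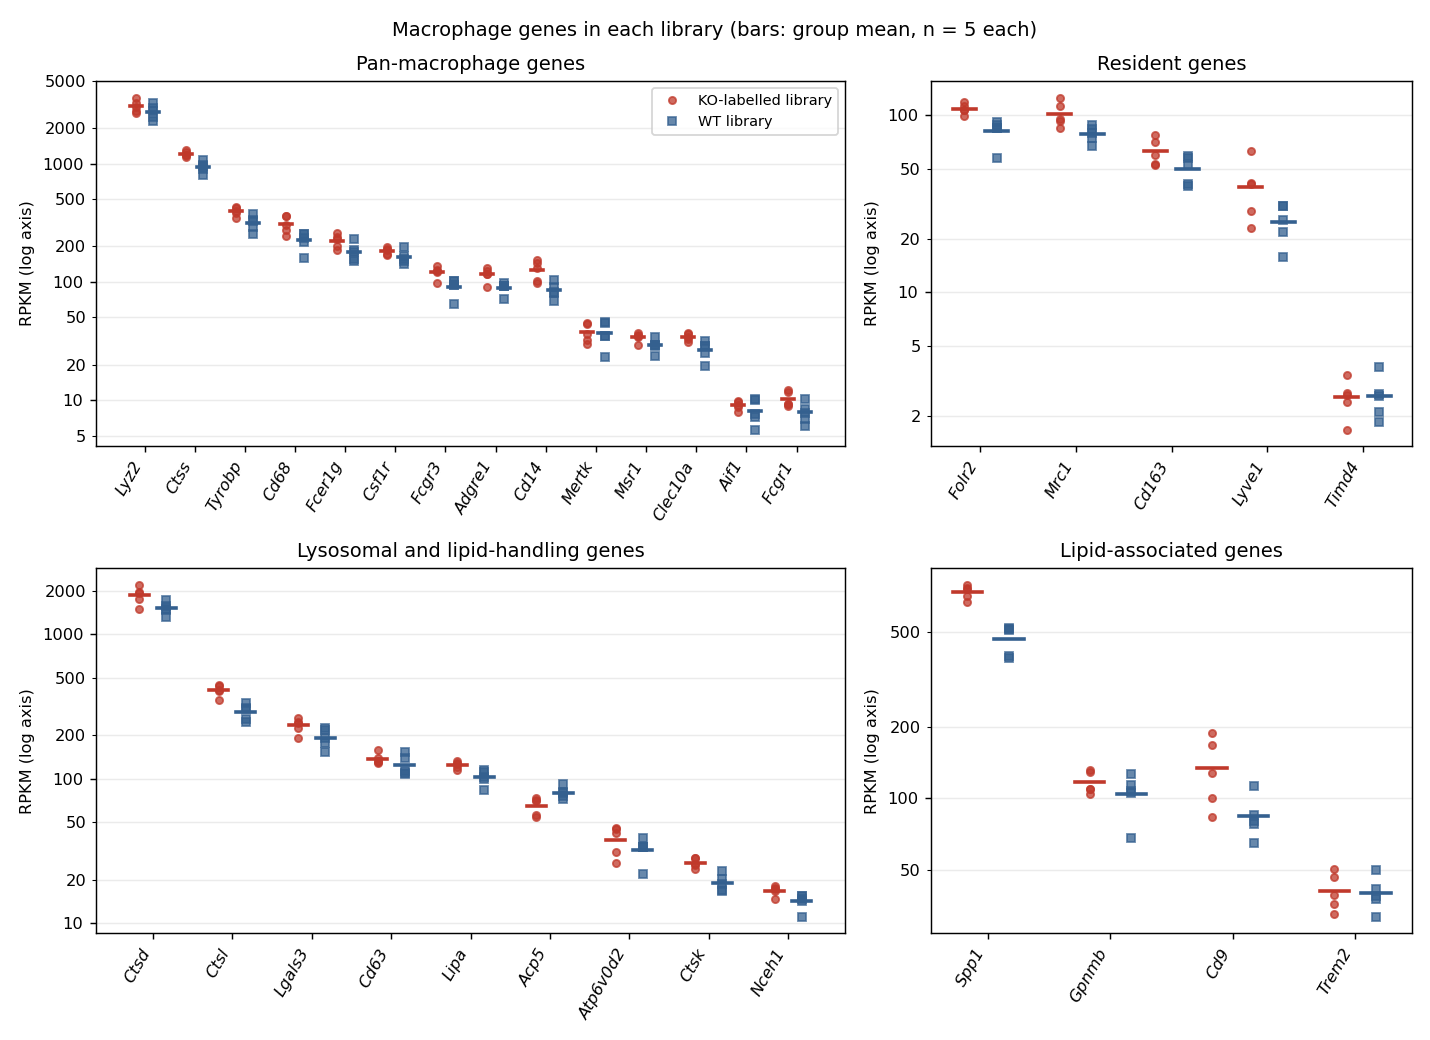
Points give the RPKM of each of the 32 genes in every library on a log axis, with KO-labelled libraries as circles left of the WT libraries as squares, and a bar at each group mean (n = 5 each). Spp1, Ctsl, Ctsk, Ctss, Folr2 and Lipa show no overlap between the groups. In Acp5 the KO-labelled libraries are the lower ones, except that KO 4 is just above WT 86.

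Of the resident genes, 4 had positive changes between 0.33 and 0.61, and Timd4 had one near 0. Of the 5, 0 passed in limma (3 higher at an unadjusted p under 0.05; 2 with voom). Folr2, which encodes folate receptor beta, was at 113, 107, 119, 107 and 99.6 RPKM in KO 1, KO 4, KO 7, KO 8 and KO 17, against 88.8, 84.9, 92.0, 57.4 and 84.5 RPKM in WT 2, WT 9, WT 19, WT 86 and WT 89. The groups did not overlap, and the change was 0.44 (SE 0.12, adjusted p = 0.0610). Without WT 86, whose level was far under the others, the change was 0.32 and passed (adjusted p = 0.0459). The mannose receptor gene Mrc1 was at 102 ± 16.5 RPKM in KO-labelled and 78.6 ± 8.28 RPKM in WT libraries (change 0.37, SE 0.12, adjusted p = 0.0826), and 4 KO-labelled libraries exceeded all WT libraries. Cd163, the scavenger receptor for haemoglobin bound to haptoglobin, was at 62.8 ± 11.1 and 50.1 ± 9.05 RPKM in KO-labelled and WT libraries (change 0.33, adjusted p = 0.203).

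Lyve1 and Timd4 marked the ends of the resident class. Lyve1, a hyaluronan receptor of perivascular macrophages and lymphatic endothelium, was at 41.4, 41.0, 23.2, 28.8 and 63.0 RPKM in the KO-labelled libraries, against 21.9, 30.8, 25.8, 15.8 and 30.6 RPKM in the WT libraries, in the order given for Folr2. KO 7 and KO 8 lay within the WT range and KO 17 was far above it, so that the change of 0.61 had an SE of 0.27 (adjusted p = 0.194). Of 8 lymphatic endothelial markers 4 passed the filter and 0 were called by limma (0 at an unadjusted p under 0.05, 0 with voom), with a summed level of 3.52 to 12.3 RPKM in KO-labelled and 5.87 to 9.30 RPKM in WT libraries. Pdpn and Ccl21a are listed at 0 in every library, and Mmrn1 was at 2.22 ± 1.56 and 2.23 ± 0.449 RPKM in KO-labelled and WT libraries. The median change of the 4 lymphatic markers was -0.138, and it was -0.301 without KO 17 and 0.045 without KO 7. The part of lymphatic endothelium in the Lyve1 levels was not tested. Timd4, the phosphatidylserine receptor of long-lived resident macrophages, was the least abundant of the 32 genes, at 1.68 to 3.42 RPKM in KO-labelled and 1.85 to 3.81 RPKM in WT libraries. Its change was -0.01 (95% interval -0.42 to 0.40, adjusted p = 0.977).

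The level of the resident genes against the pan-macrophage genes was highest in KO 17. The mean log2 level of the 5 resident genes minus that of the pan-macrophage genes had an SD of 0.28 in the KO-labelled libraries and 0.11 in the WT libraries, with means of -1.67 and -1.71. It was -1.24 in KO 17 and -1.58 to -1.95 in the other KO-labelled libraries, whose SD without KO 17 was 0.16. KO 17, the lowest KO-labelled library for 14 of the 32 genes, had the highest Lyve1 (63.0 RPKM), Cd163 (77.8 RPKM) and Timd4 (3.42 RPKM) of the KO-labelled group. Its Folr2 (99.6 RPKM) was the lowest of that group, and its Mrc1 (113 RPKM) was under that of KO 1 (126 RPKM). KO 8, whose pan-macrophage mean was 6.96, had the lowest Timd4 of all 10 libraries, at 1.68 RPKM (56 reads). WT 86 was close to it, at 1.85 RPKM (58 reads). These spreads carry no test.

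Of the lipid-associated genes, Spp1 passed the test and Cd9, Gpnmb and Trem2 did not. Spp1 encodes osteopontin, a secreted phosphoprotein that attracts and retains macrophages. It was at 758, 794, 669.6, 771 and 714 RPKM in KO 1, KO 4, KO 7, KO 8 and KO 17, against 399, 514, 518, 391 and 524 RPKM in WT 2, WT 9, WT 19, WT 86 and WT 89. The groups were well apart, and the WT libraries fell into a lower pair, WT 2 and WT 86, and 3 higher ones. The change was 0.67 (SE 0.11, adjusted p = 0.00871), a ratio of 1.59 (95% interval 1.34 to 1.89). It passed in each of the 10 runs without 1 library (adjusted p = 0.0145 to 0.0299), and with median-ratio scaling, quantile normalization and voom.

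Trem2, the lipid-sensing receptor that defines lipid-associated macrophages, showed no detectable difference at the level of the whole gene. It was at 39.1, 50.2, 32.6, 46.4 and 35.8 RPKM in the KO-labelled libraries, against 37.6, 41.4, 49.9, 31.7 and 38.9 RPKM in the WT libraries, in the same order. The ranges overlapped almost fully, and the ratio was 1.02 (95% interval 0.822 to 1.27, adjusted p = 0.928). The change of 0.03 became -0.06 with median-ratio scaling and with quantile normalization. Transcripts of Trem2 went both ways. The main coding one, ENSMUST00000113237, carried 55.8% of the level in KO-labelled and 46.9% in WT libraries (change 0.25, adjusted p = 0.621). The coding ENSMUST00000024791 had a change of -0.12 (adjusted p = 0.914), and the processed transcript ENSMUST00000148545 one of -1.24 (adjusted p = 0.696). Gpnmb, a lysosomal and membrane glycoprotein gene of lipid-laden macrophages, was at 117 ± 12.7 RPKM in KO-labelled and 104 ± 21.7 RPKM in WT libraries (change 0.19, adjusted p = 0.498). Cd9, which encodes a tetraspanin that many cell types carry, was at 168, 83.0, 189, 128 and 99.9 RPKM in the KO-labelled libraries, against 113, 78.0, 80.3, 64.9 and 84.7 RPKM in the WT libraries. KO 1, KO 7 and KO 8 lay above every WT library while KO 4 and KO 17 did not, and the change of 0.62 had an SE of 0.23 (adjusted p = 0.129).

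Among the lysosomal and lipid-handling genes, the cathepsin genes Ctsl and Ctsk passed the test. Ctsl, which encodes the lysosomal cysteine protease cathepsin L, was at 438, 403, 409, 443 and 353 RPKM in KO 1, KO 4, KO 7, KO 8 and KO 17, against 335, 306, 308, 248 and 258 RPKM in WT 2, WT 9, WT 19, WT 86 and WT 89. KO 17 was the nearest to the WT libraries, and the change was 0.50 (SE 0.10, adjusted p = 0.0251). Ctsk, which encodes cathepsin K, a collagen-degrading protease best known from osteoclasts, was at 28.2, 28.2, 23.9, 25.6 and 25.3 RPKM in the KO-labelled libraries, against 16.7, 18.7, 22.8, 17.0 and 20.2 RPKM in the WT libraries. The groups did not overlap, and the change was 0.45 (SE 0.09, adjusted p = 0.0204). The call of Ctsl ended without KO 1 (0.47), KO 7 (0.50), KO 8 (0.47), WT 86 (0.44) or WT 89 (0.46), and that of Ctsk without KO 1 (0.43) or WT 86 (0.42). Median-ratio scaling ended both calls (0.41 for Ctsl, adjusted p = 0.0757; 0.36 for Ctsk, adjusted p = 0.0698), and quantile normalization that of Ctsk (0.37, adjusted p = 0.0503).

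Ctsk is also made by fibroblasts. Of 12 markers of fibroblasts and adipocyte progenitors 3 were called higher (Dpt, Lum and Cd55) and 0 lower, with a median change of 0.24 and a summed level of 2269 to 2581 RPKM in KO-labelled and 1761 to 2359.9 RPKM in WT libraries. Dpt, which encodes dermatopontin, was at 176 ± 28.1 and 88.4 ± 10.7 RPKM in KO-labelled and WT libraries (change 0.98, adjusted p = 0.00164). The 3 calls became 1 without WT 86, 1 without KO 1 and 1 with median-ratio scaling, and 10 of the 12 changes were positive. Their part in the change of Ctsk was not tested.

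Promoters of the 3 called genes are shown because these 3 of the 32 genes passed the test. Each is a 300-base window of RefSeq, from 250 bases before to 50 bases after a gene's start (build GRCm38.p6), written along the gene. Capitals mark AGGAAG and GAGGAA on either strand, which hold the core read by ETS factors such as PU.1, the lineage factor of macrophages. The Spp1 window, the first of 2 in the table (chr5:104434861-104435160, plus strand), held AGGAAG on the gene's strand 112 bases before the start, overlapping a GAGGAA that begins 113 bases before it, and AGGAAG on the opposite strand 148 bases before it. The Ctsk window (chr3:95498960-95499259, plus strand) held overlapping copies of both on the gene's strand, from 233 bases before the start, and on the opposite strand, from 59 bases before it. The Ctsl window (chr13:64370471-64370770, minus strand) held neither string. Shorter forms of the core were not searched for, so this does not show that the window lacks it.
Spp1: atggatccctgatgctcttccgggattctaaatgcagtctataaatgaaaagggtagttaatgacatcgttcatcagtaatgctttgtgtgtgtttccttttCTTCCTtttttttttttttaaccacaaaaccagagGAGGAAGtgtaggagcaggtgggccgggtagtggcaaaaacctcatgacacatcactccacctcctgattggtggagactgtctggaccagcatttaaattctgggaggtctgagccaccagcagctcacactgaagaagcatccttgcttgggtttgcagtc
Ctsk: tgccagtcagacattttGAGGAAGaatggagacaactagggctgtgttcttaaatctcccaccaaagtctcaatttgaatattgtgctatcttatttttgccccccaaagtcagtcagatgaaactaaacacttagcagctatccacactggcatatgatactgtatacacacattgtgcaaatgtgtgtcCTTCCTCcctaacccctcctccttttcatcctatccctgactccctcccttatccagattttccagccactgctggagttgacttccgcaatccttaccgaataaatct
Ctsl: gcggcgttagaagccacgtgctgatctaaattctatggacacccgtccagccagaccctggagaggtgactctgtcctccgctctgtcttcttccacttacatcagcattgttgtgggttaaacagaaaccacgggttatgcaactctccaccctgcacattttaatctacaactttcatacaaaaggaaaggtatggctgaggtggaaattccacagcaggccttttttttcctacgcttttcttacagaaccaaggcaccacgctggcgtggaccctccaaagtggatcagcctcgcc

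Windows were found for 24 of the 32 genes. At least 1 window held AGGAAG or GAGGAA in 16 of the 24, which is 66.7%, beside 49.4% of all 27025 genes with a window. By window it was 19 of 29 (65.5%), beside 46% of all 32851 windows. TCACGTG, an E-box read by the lysosomal regulators TFEB and MITF, was found in the windows of Ctsd and Nceh1, 2 of 24 genes (8.33%), beside 4.29% of all genes. Such matches describe the letters of these windows and are not evidence of binding.

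The other lysosomal and lipid-handling genes did not pass. Lipa, the lysosomal acid lipase gene, was at 129, 132, 120.3, 126 and 115 RPKM in the KO-labelled libraries, against 103, 99.7, 111, 83.0 and 115 RPKM in the WT libraries, in the order given for Ctsl. KO 17 and WT 89 were nearly level, and the change was 0.29 (SE 0.09, adjusted p = 0.0842). Nceh1, the gene of a neutral cholesterol ester hydrolase, had a change of 0.24 (adjusted p = 0.141). The aspartyl protease gene Ctsd had one of 0.30 (adjusted p = 0.165), with 1875 ± 265 RPKM in KO-labelled and 1518 ± 146 RPKM in WT libraries. Lgals3, which encodes galectin-3, had a change of 0.29 (adjusted p = 0.180), the tetraspanin gene Cd63 one of 0.16 (adjusted p = 0.413), and Atp6v0d2, a proton pump subunit gene, one of 0.22 (adjusted p = 0.521).

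Acp5 went the other way. It encodes tartrate-resistant acid phosphatase, an enzyme of osteoclasts and of tissue macrophages. Its level was 69.8, 73.3, 55.8, 54.2 and 71.1 RPKM in KO 1, KO 4, KO 7, KO 8 and KO 17, against 79.2, 76.4, 92.6, 72.7 and 80.4 RPKM in WT 2, WT 9, WT 19, WT 86 and WT 89. The KO-labelled libraries were below all WT libraries except KO 4, which was just above WT 86. The change was -0.31 (SE 0.10) and did not pass (adjusted p = 0.09998).

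Whether the resident, lipid-associated and lysosomal genes differed from the pan-macrophage genes was tested on ratios within a library, which do not depend on scaling between libraries. From each library the mean log2 level of the 14 pan-macrophage genes was subtracted, and limma was fitted again across all genes. By this measure 577 of 17038 genes (3.39%) were called lower and 17 (0.0998%) higher, and the median over all genes was -0.22. Of the 18 genes read, only Acp5 relative to pan-macrophage genes was called lower (change -0.62, SE 0.12, adjusted p = 0.0134). It was called lower in each of the 10 runs without 1 library too, and with the list of other macrophage genes as denominator (-0.59). With Csf1r alone as denominator the change was -0.49 and missed the threshold (adjusted p = 0.0627).

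The other 17 genes read did not pass against the pan-macrophage genes. Spp1 had a relative change of 0.36 (95% interval 0.10 to 0.63, adjusted p = 0.114) and Trem2 one of -0.28 (-0.55 to -0.01, adjusted p = 0.180). Cd9 was at 0.31 (-0.12 to 0.75), Gpnmb at -0.12 (-0.36 to 0.11), Ctsl at 0.19 (-0.03 to 0.41) and Ctsk at 0.15 (-0.09 to 0.38). Among the resident genes, Mrc1 was at 0.06 (-0.21 to 0.34), Cd163 at 0.02 (-0.34 to 0.37), Folr2 at 0.13 (-0.08 to 0.34), Lyve1 at 0.30 (-0.29 to 0.89) and Timd4 at -0.32 (-0.71 to 0.07). The other 6 lysosomal and lipid-handling genes had relative changes between -0.15 for Cd63 and -0.01 for Ctsd. With intervals of this width, a miss does not show that the classes moved alike.

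**Figure D3:**
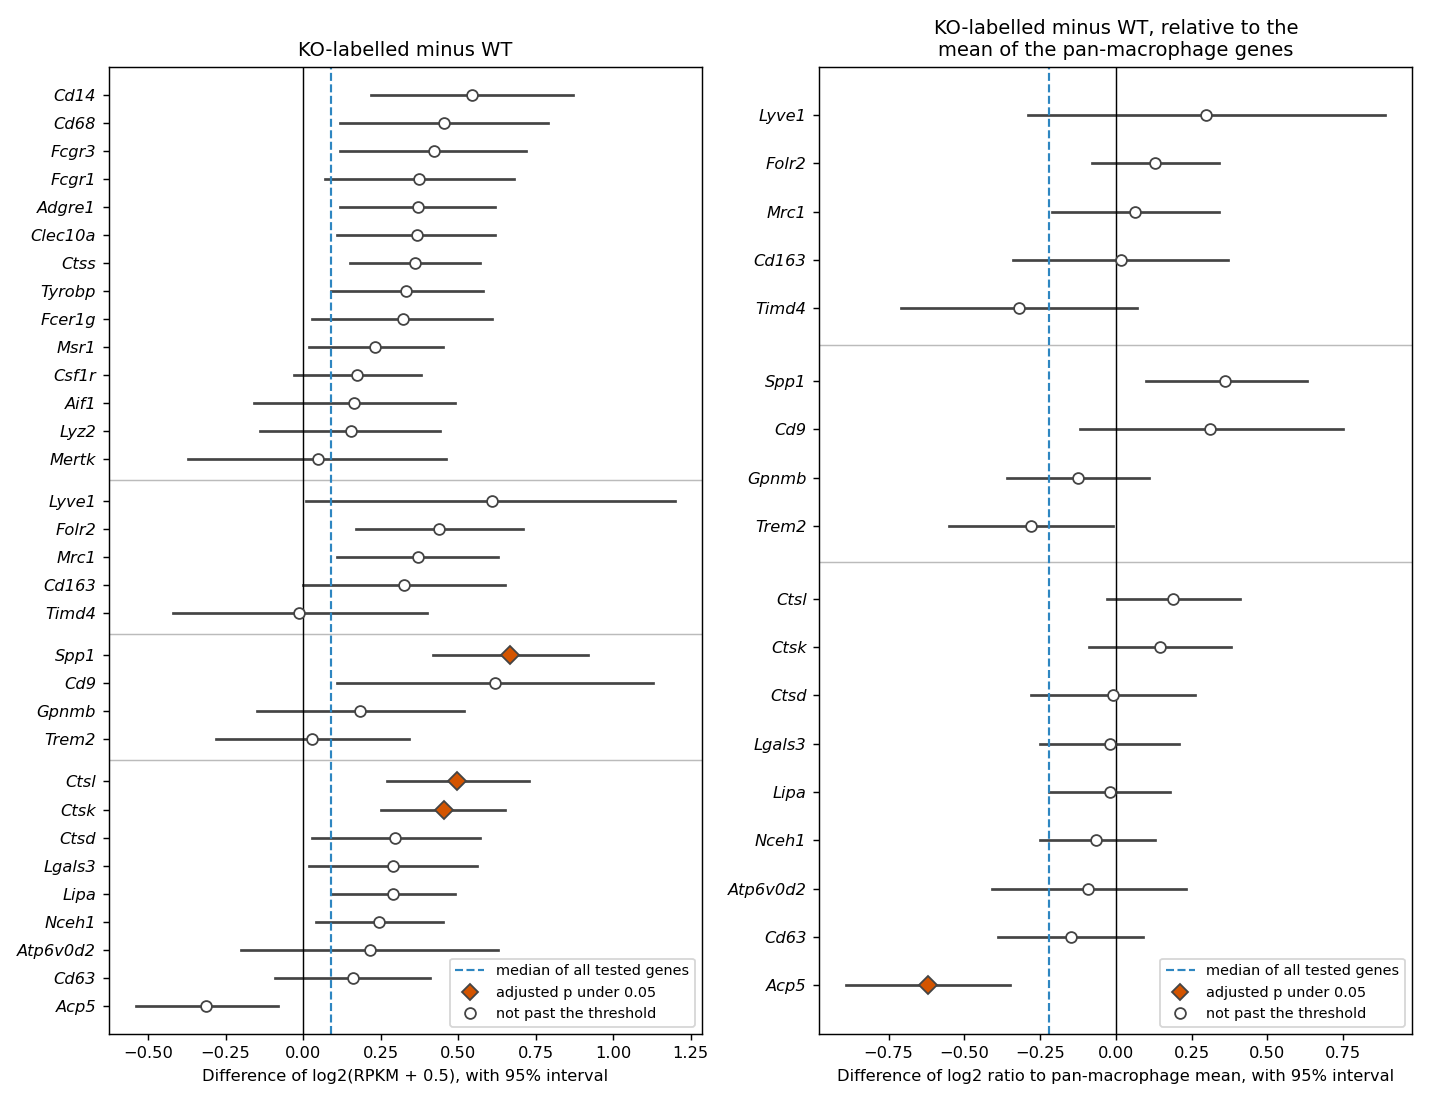
The left panel gives the log2 change of each gene with its 95% interval, and the right panel the same relative to the mean of the pan-macrophage genes, with blocks from the top in the order pan-macrophage (left panel only), resident, lipid-associated, and lysosomal and lipid-handling. Diamonds mark an adjusted p under 0.05, reached by Spp1, Ctsl and Ctsk on the left and by Acp5 on the right, and the dashed line is the median of all tested genes (0.09 left, -0.22 right).

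The same 32 genes were also examined transcript by transcript. The deposited transcript table lists 86 transcripts of the 32 genes, of which 72 passed the filter. None was called higher or lower by limma at an adjusted p under 0.05 over 44475 transcripts (19 higher and 1 lower at an unadjusted p under 0.05), beside 0.0922% of all transcripts called higher and 0.452% lower. The main Spp1 transcript, ENSMUST00000031243, carried 82.0% of the gene's summed transcript level in the KO-labelled libraries and 84.8% in the WT libraries. It was at 762 ± 76.4 and 525 ± 78.7 RPKM in KO-labelled and WT libraries, without overlap (change 0.54, adjusted p = 0.101). The Acp5 transcript ENSMUST00000069330 was at 27.9 to 34.6 RPKM in KO-labelled and 39.1 to 41.1 RPKM in WT libraries. Its groups did not overlap, and its change was -0.39 (SE 0.07, adjusted p = 0.0581). That transcript carried 51.7% of the Acp5 level in KO-labelled and 54.5% in WT libraries. The other large one, ENSMUST00000115315, carried 47.7% and 45.2%. Its groups overlapped, at 21.9 to 35.4 RPKM in KO-labelled and 26.2 to 43.4 RPKM in WT libraries (change -0.24, adjusted p = 0.747).

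Other genes of the same cells, listed without regard to how they moved but with earlier results of these data known, were mostly higher too. Their calls stand beside 4.00% of all tested genes called higher and 1.95% called lower in the main fit. Of 22 other macrophage and myeloid genes, 6 were called higher and 0 lower, with a median change of 0.29. They included Cd53 (0.51, adjusted p = 0.0231) and Itgam (0.43, adjusted p = 0.0241), and C1qa, a complement gene made by macrophages, was at 543 ± 36.6 and 499 ± 49.7 RPKM in KO-labelled and WT libraries (adjusted p = 0.441). Of 15 other resident genes 4 were called higher, namely Ccl24 (0.79), Cd209d (0.74), Ccl8 (0.55) and F13a1 (0.47), and the median change was 0.34. Of these 15 changes 14 were positive, and Gas6 went the other way (-0.50, adjusted p = 0.0582). Of 16 other lipid-associated genes 0 were called higher (5 at an unadjusted p under 0.05; 0 with voom) and Lpl, which adipocytes also make, was called lower (-0.63, adjusted p = 0.00470). Without WT 86, 2 of the 22, 0 of the 15 and 0 of the 16 were called higher, with medians of 0.26, 0.27 and 0.16. With median-ratio scaling 0 of the 22 and 1 of the 15 were called higher, and 1 of the 15 lower. With quantile normalization 0 of the 22 and 2 of the 15 were called higher. Of the 15, 1 was also called lower with voom and without KO 4. Over the 10 runs without 1 library, the higher calls ranged from 0 (without KO 1 or KO 8) to 7 of the 22 and from 0 (without WT 86 or WT 89) to 3 of the 15.

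Of 27 other lysosomal genes 7 were called higher and 0 lower, beside 4.00% and 1.95% of all tested genes, with a median change of 0.25. Ctsc, which encodes the protease that activates granule enzymes, had a change of 0.44 (adjusted p = 0.0241), and Ctsh, which encodes the lysosomal aminopeptidase cathepsin H, one of 0.35 (adjusted p = 0.0375). Without WT 86, limma called 0 of the 27, with median-ratio scaling 0, with quantile normalization 1 and with voom 11. Without KO 1 or WT 89 it called 0 as well, and in the other runs without 1 library 1 to 4. Of 15 genes of TREM2 and Fc receptor signalling 1 was called higher, the inhibitory receptor gene Fcgr2b (0.43, adjusted p = 0.0314). That call was lost without any 1 of KO 1, KO 7, KO 8, WT 9, WT 19, WT 86 and WT 89 (adjusted p up to 0.0719), with no filter, with median-ratio scaling and with quantile normalization. Of 9 tested genes for ligands of the CSF1 receptor and for monocyte attraction 1 was called higher, Ccr2 (0.54, adjusted p = 0.00426), the monocyte chemokine receptor gene. Its ligand gene Ccl2 varied widely, at 84.8 ± 59.9 and 35.3 ± 13.9 RPKM in KO-labelled and WT libraries (adjusted p = 0.242).

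Markers of other cells differed in direction from list to list. Of 14 monocyte and neutrophil markers 6 were called higher, beside 4.00% of all tested genes. Ccr2, already counted in the list before, is 1 of the 6. The median change of the 14 was 0.58, with a summed level of 644 to 1044 RPKM in KO-labelled and 282 to 523 RPKM in WT libraries. S100a9, a calcium-binding protein gene of neutrophils and monocytes, was at 257 ± 63.8 and 110.2 ± 26.6 RPKM in KO-labelled and WT libraries (change 1.21, adjusted p = 0.0143). The 6 calls became 3 without WT 86 and 3 with median-ratio scaling, and ranged from 2 (without KO 1) to 6 over the runs without 1 library, with 3 without KO 8, KO 17, WT 9 or WT 89. Of 12 dendritic cell markers 0 were called by limma (3 higher at an unadjusted p under 0.05; 0 with voom; 1 without WT 2), with 1128 to 1363 RPKM in KO-labelled and 802 to 1491 RPKM in WT libraries in sum. Of 10 mesothelial markers 0 were called by limma (3 higher at an unadjusted p under 0.05; 1 with voom), at 336 to 410.0 and 297 to 352 RPKM in KO-labelled and WT libraries in sum. Of 12 adipocyte markers 11 were called lower, and these 12 took 0.663% to 0.797% of reads in the KO-labelled libraries and 1.90% to 2.78% in the WT libraries. The 32 macrophage genes took 1.65% to 1.96% and 1.26% to 1.60% of reads in KO-labelled and WT libraries. The part of these other cells in the changes of the 32 genes was not tested.

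**Figure D4:**
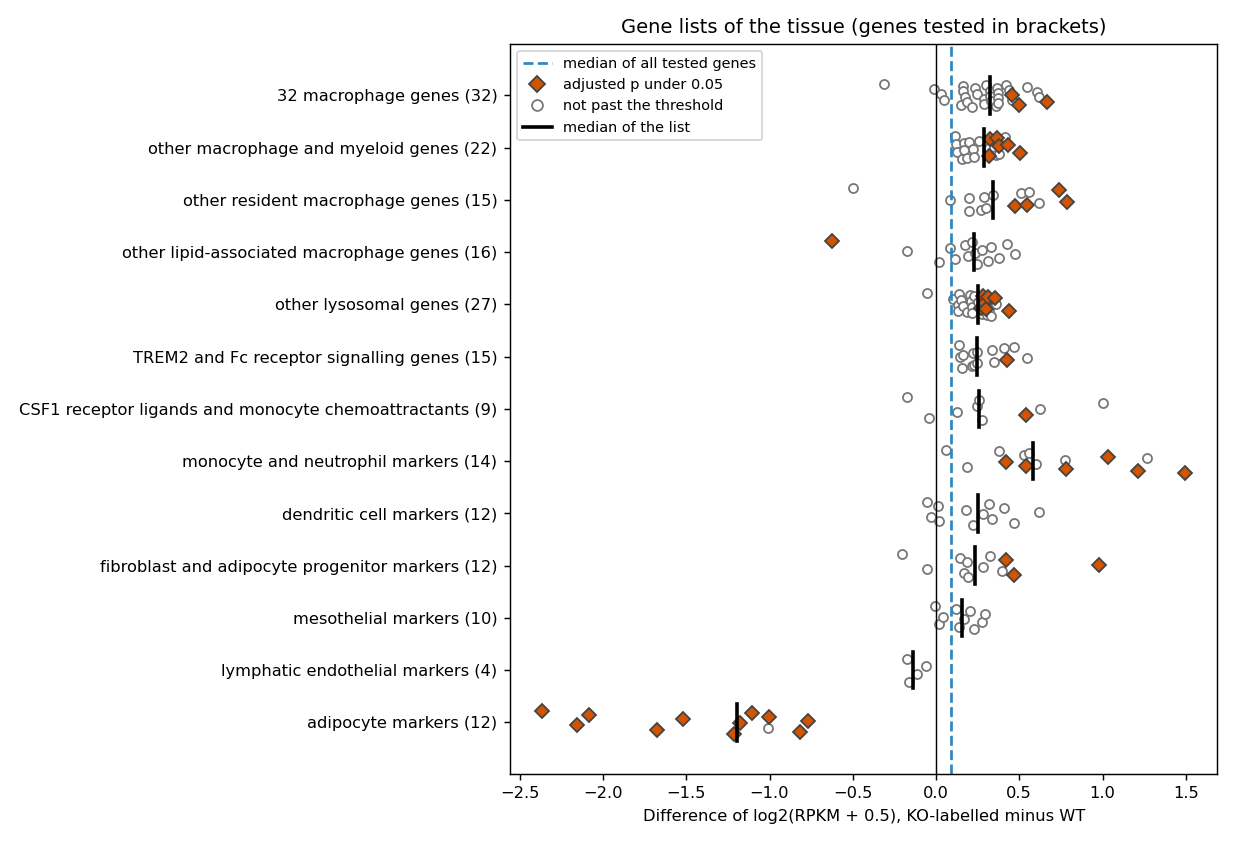
Each point is the log2 change of one tested gene, KO-labelled minus WT, in the 32 macrophage genes and in 12 other lists, with diamonds for an adjusted p under 0.05, a black bar at each list's median and a dashed line at the median of all tested genes (0.09). The macrophage lists sit between 0.23 and 0.35, monocyte and neutrophil markers at 0.58, and adipocyte markers at -1.20.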

How the data were processed

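RNA-seq of gonadal white adipose tissue from 5 KO-labelled and 5 WT mice was analysed. The authors deposited RPKM values for genes and for transcripts, and the file names are the source of that unit. Per the submitters' processing notes, bcl2fastq, STAR 2.0.4b1, Subread and featureCounts 1.4.52 were used. The sources used here do not give the build, the annotation or any filter on reads.

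Repeated rows held equal values and were kept once. Whole reads were recovered from the RPKM steps for 25121 of 25122 genes above 0 in at least 3 libraries (tolerance 0.001 reads). They gave the depths and the voom fit. Counting error is small at these depths, with at least 56 reads per library for the least covered gene, Timd4.

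Genes at or above 0.5 RPKM in at least 5 libraries were tested with limma 3.58.1 (R 4.3.3, statmod 1.5.0; eBayes with trend and robust, 2-sided) on log2(RPKM + 0.5), with Benjamini-Hochberg adjustment over all tested genes. Transcripts were handled alike. All adjusted p-values are from limma. Animal numbers are not shared between groups, so nothing was paired. The labels give no batch. The fit was tested on simulated reads. The 32 genes, their classes and the other lists were chosen with earlier results of these data known. All 32 are named. From each other list the rule marked up to 4 called genes with the largest change and the 2 most abundant. The text names only some of those, picked after their values were seen, as were Pdpn, Ccl21a and Gas6. A gene of the lysosomal list is not reported here. Alternatives were other pseudocounts, filters, scalings, moderation, denominators, voom, and leaving out each library.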

Additional observations from a re-analysis of the deposited data

Results flagged for a closer look

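The highest or lowest library of a group was compared with the gap to the others for 160 groups of 5 libraries (the 32 genes, Med19 and the other genes named by rule). Of these, 8 stood apart, which is no more than the share that chance gives, about 1 in 20 groups. WT 86 was the low library in 5 of the 8. Among the 32 genes, WT 86 was at 71.2 RPKM for Adgre1 (other WT libraries 92.2 to 98.4), at 65.0 RPKM for Fcgr3 (93.3 to 102) and at 57.4 RPKM for Folr2 (84.5 to 92.0). Among the other macrophage and lysosomal genes, it was at 507 RPKM for Ctsb (628 to 653) and at 44.4 RPKM for Fcgr2b (50.3 to 51.8).

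The remaining ones were single values. Retnla, a gene of alternatively activated macrophages, was at 1661 RPKM in KO 7 and at 517 to 775 RPKM in the other KO-labelled libraries. WT 2 was at 9.27 RPKM for the neutrophil gene Retnlg (other WT libraries 2.64 to 3.75) and at 12.3 RPKM for Cd55 (11.5 to 11.7).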

How the results depend on the processing

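No paired analysis was possible because the groups share no animal number. Spp1 kept its call in every alternative run. Of 608 comparisons of the 32 single genes with an alternative, 563 kept direction and side of the threshold. Direction turned in 19, a call was gained in 14, and a call of Ctsl or Ctsk was lost in 12. Only 3 genes were called in the main fit, so most of the 563 are genes that stayed uncalled. Calls higher over all genes (681) became 292 with no filter, 103 with median-ratio scaling, 149 with quantile normalization and 63 with median-ratio scaling without WT 86, an alternative chosen after seeing the data; without 1 library they ranged from 192 to 693, and calls lower (332) from 205 to 313. The 3 higher calls among the 32 genes became 5 with a filter at 1 RPKM, 8 with voom, 1 with median-ratio scaling (also without WT 86) and 1 to 5 without 1 library. Pan-macrophage calls (0) became 1 with a pseudocount of 0.1 and with plain eBayes, 2 with a filter at 1 RPKM, 3 with voom and 0 to 2 without 1 library; resident calls (0) became 2 with voom and 0 to 1 without 1 library; the 2 lysosomal calls became 0 with median-ratio scaling (also without WT 86), 1 with quantile normalization and 0 to 2 without 1 library. The lower call relative to the pan-macrophage genes became 0 with Csf1r as denominator. Member transcripts called lower (0) became 1 with median-ratio scaling, 1 with quantile normalization and 0 to 1 without 1 library. The cause of these moves was not tested.

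Some single genes changed sign, none of them called. With median-ratio scaling, Mertk was at -0.04 and Trem2 at -0.06, and with quantile normalization at -0.04 and -0.06. With median-ratio scaling without WT 86, Lyz2, Atp6v0d2, C1qa, Upk3b and Krt19 were at -0.01, Mertk at -0.20, Trem2 at -0.14 and Gpnmb at -0.06. Without 1 library, Mertk ranged from -0.10 to 0.13, Timd4 from -0.11 to 0.11 and Trem2 from -0.05 to 0.11. Relative to Csf1r, Gpnmb was at 0.01, Lgals3 and Ctsd at 0.12, Atp6v0d2 at 0.04, Lipa at 0.11 and Nceh1 at 0.07. Relative to the other macrophage genes, Lgals3 and Lipa were at 0.01 and Ctsd at 0.02. Relative to the pan-macrophage genes without 1 library, Mrc1 ranged from -0.01 to 0.12, Cd163 from -0.10 to 0.08, Lgals3 from -0.05 to 0.05, Atp6v0d2 from -0.15 to 0.04, Ctsd from -0.06 to 0.04, and Lipa from -0.06 to 0.02. Without 1 library, the lymphatic genes Flt4 and Mmrn1 ranged from -0.13 to 0.07 and from -0.44 to 0.08. Med19 differed by -0.312 RPKM with median-ratio scaling (exact permutation p = 0.603) and by -0.205 to 0.398 RPKM without 1 library. Counting error weighs most on Timd4, with 56 to 132 reads per library.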

Other observations

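Ratios of gene pairs within a library compare single genes without any scaling. They were chosen after the values were seen and carry no test. Acp5 per 100 RPKM of Cd68 was at 15.5 to 29.1 RPKM in KO-labelled and 30.9 to 45.3 RPKM in WT libraries, with no overlap. Gpnmb per 100 RPKM of Cd68 was at 30.6 to 43.6 and 42.5 to 49.4 RPKM in KO-labelled and WT libraries, and Trem2 per 100 RPKM of Tyrobp at 8.47 to 12.0 and 11.3 to 14.2 RPKM, each with a small overlap. Timd4 per 100 RPKM of Folr2 was at 1.57 to 3.43 and 2.48 to 4.29 RPKM in KO-labelled and WT libraries. Mrc1 per 100 RPKM of Cd68 overlapped widely, at 23.8 to 46.0 and 29.1 to 41.7 RPKM in KO-labelled and WT libraries. The other 3 ratios had higher medians in the KO-labelled libraries, with overlap. Spp1 per 100 RPKM of Cd68 was at 186 to 292 (median 255) and 155 to 244 RPKM (median 224) in KO-labelled and WT libraries. Cd9 per 100 RPKM of Cd63 was at 64.6 to 142 (median 98.2) and 57.6 to 74.9 RPKM (median 71.9), and Lyve1 per 100 RPKM of Folr2 at 19.5 to 63.3 (median 36.5) and 24.7 to 36.3 RPKM (median 28.1), in KO-labelled and WT libraries.

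The transcript table held 1 minor form of a lysosomal gene that stood apart. The retained-intron transcript of Ctsd, ENSMUST00000153679, was at 18.8 to 56.6 RPKM in KO-labelled and 8.80 to 16.0 RPKM in WT libraries (change 1.30, adjusted p = 0.143). It made up 1.62% and 0.780% of the summed Ctsd transcript level in KO-labelled and WT libraries.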
